A study of Homo sapiens with 5 samples.

Results

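The genes described here are 42 genes of the unfolded protein response and of the response to amino acid shortage, out of 38854 genes with an annotated transcript. They were chosen by name as ATF4 targets, tRNA synthetases, endoplasmic reticulum (ER) chaperones and the sensors and transcription factors above them. They were measured in total RNA of WI-38 cells, a line of human diploid lung fibroblasts with a limited number of divisions. Of the 5 libraries, 1 came from early cultures at population doubling level (PDL) 15 and 1 from late cultures at PDL 55. The other 3 were PDL 15 cultures transfected with a control siRNA, an siRNA against AUF1 or an siRNA against HuR. AUF1 (gene HNRNPD) and HuR (gene ELAVL1) are RNA-binding proteins that bind AU-rich and U-rich messages. Each group had 1 library, so there was no spread between replicates, no test of a difference between conditions was possible, and no p-value is given. The labels do not state the siRNA sequence, its dose or the time after transfection.

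The unfolded protein response starts when misfolded protein collects in the ER. Its sensors are the kinase PERK (gene EIF2AK3), the kinase and RNase IRE1 (gene ERN1), which splices the XBP1 message, and ATF6, which is cut in the Golgi and moves to the nucleus. PERK and the amino acid sensor GCN2 both phosphorylate the initiation factor eIF2. General translation then falls while ATF4 is translated, and ATF4 activates genes for amino acid synthesis, amino acid import and tRNA charging. ATF6 and spliced XBP1 mainly activate ER chaperones. Both ATF4 translation and XBP1 splicing are steps that a summed RNA level does not show.

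Of the 42 members, 36 could be compared. ATF5, CANX and PDIA3 had transcripts for which the authors' program reported failure, and DDIT3, DDIT4 and DNAJB9 averaged under 1 FPKM (fragments per kilobase, scaled to sequencing depth, so a level per length). Among the 36, PHGDH, PSPH and EIF2AK3 were listed at 0 in at least 1 library, which can be a failed estimate, and 33 were above 0 in all 5. The only annotated transcript of DDIT3, which encodes the stress factor CHOP, was listed at 0 in all 5 libraries. With assembled transcripts it was at 2.38, 2.20 and 2.53 FPKM in the PDL 55, AUF1 siRNA and HuR siRNA libraries and at 0 in the other two. DDIT4, an mTORC1 inhibitor, reached 0.49 FPKM in the control siRNA library, and DNAJB9, a co-chaperone of HSPA5, reached 2.95 FPKM at PDL 55 and was listed at 0 elsewhere. Differences are given as log2((FPKM + 1)/(FPKM + 1)) minus the median over all genes compared, which sets the median gene at 0, and a gene was counted as higher or lower at 2-fold or more. Intervals in square brackets are the authors' 95% bounds summed over transcripts. They describe the estimate within 1 library, not the spread between cultures. ATF4, PSPH and HSP90B1 have related pseudogenes, and how reads were split between such copies is not stated, so their levels are less certain.

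The control siRNA library stood apart from the other 4. Transcripts under 100 nucleotides held 73.9% of its summed FPKM times length, against 4.14 to 8.24% elsewhere, and coverage per FPKM was 0.300 against 1.14 to 1.29. Most siRNA ratios and counts below are therefore given against the control siRNA library and against the untreated PDL 15 library. These comparisons share the siRNA library. For some members only the FPKM values, or a ratio against a single reference, are given. HNRNPD, the AUF1 gene, was at 119, 42.3, 61.2, 20.3 and 120 FPKM in the PDL 15, PDL 55, control, AUF1 siRNA and HuR siRNA libraries. It was lowest in the AUF1 siRNA library. ELAVL1, the HuR gene, was at 16.7, 12.2, 11.8, 17.7 and 9.72 FPKM in the same order. In the HuR siRNA library its interval, [8.59, 10.8], overlapped that of the control, [9.38, 14.1], and its FPKM there was 14.8 when transcripts assembled from the reads were added. The HuR siRNA library is therefore named by its label, which the ELAVL1 level did not clearly bear out. Of 14 fibroblast markers, 10 to 12 were above 1 FPKM in each library, although VIM was listed at 0 in all 5, and their sums ran from 1466 to 7008 FPKM. COL1A1 was highest in the AUF1 siRNA library and listed at 0 in the HuR siRNA library. Summed epithelial markers stayed between 7.53 and 17.9 FPKM, endothelial between 4.68 and 14.7 and blood between 1.51 and 23.9. Smooth muscle and pericyte markers summed to 133, 94.1, 50.6, 18.7 and 25.8 FPKM in the PDL 15, PDL 55, control, AUF1 siRNA and HuR siRNA libraries, lowest in the AUF1 and HuR siRNA libraries, where ACTA2 was listed at 0. The part of these markers in the results was not tested. In bulk RNA, fewer cells with a message and less of it per cell cannot be told apart.

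Promoter windows were searched for the control elements of both arms of the response, and 13 of 38 members held at least 1. RefSeq (GRCh38.p14) windows were matched for 38 of the 42 members, and the 250 bases before each start were searched on both strands. The letters TGATGNAA, the core of the C/EBP-ATF response element through which ATF4 acts, occurred in 6 of 38 members (15.8%) and in 3.89% of all 27305 genes. The ER stress response element of ATF6 and XBP1, CCAAT and CCACG with 9 bases between them, occurred in 6 of 38 members (15.8%) and in 0.0916% of all genes. Its second form, ATTGG and CCACG with 1 base between them, occurred in SDF2L1 and HERPUD1, or 5.26% of members, and in 0.0659% of genes. The XBP1 motif TGACGTG was in no member window and in 2.05% of genes. HERPUD1 alone held elements of both arms. The motif letters did not overlap each other in any member. A match is a description of the letters and not a measured binding site. The windows below show the ATF4-type motif in capitals, on the gene's strand, so that TTGCATCA or TTTCATCA is the motif on the opposite strand. They are shown because these genes include 3 synthetases and the stress enzymes CHAC1 and ASNS described further on.
CHAC1 (chr15:40953232-40953299, plus strand): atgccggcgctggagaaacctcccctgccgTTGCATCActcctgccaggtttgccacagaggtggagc
ASNS (chr7:97872439-97872506, minus strand): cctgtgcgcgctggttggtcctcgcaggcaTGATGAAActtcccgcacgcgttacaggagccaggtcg
AARS (chr16:70289656-70289723, minus strand): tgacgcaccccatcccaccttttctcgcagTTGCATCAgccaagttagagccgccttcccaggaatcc
GARS (chr7:30594815-30594877, plus strand): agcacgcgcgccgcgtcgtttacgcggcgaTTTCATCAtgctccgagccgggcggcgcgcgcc
IARS (chr9:92293698-92293740, minus strand): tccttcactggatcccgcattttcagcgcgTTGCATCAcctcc

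The next windows show the ER stress response element in capitals in XBP1 and in chaperone genes. CGTGG comes first where the element lies on the opposite strand. CANX also held the element, but its window is not shown, and CANX was not among the members compared. SDF2L1 holds the second form. HSP90B1 held 2 elements, 194 and 89 bases before the start. HERPUD1 held both the ATF4-type motif and the second form of the ER element, and both are capitalised in its window.
XBP1 (chr22:28800573-28800651, minus strand): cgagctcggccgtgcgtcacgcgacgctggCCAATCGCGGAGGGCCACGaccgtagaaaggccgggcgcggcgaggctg
HSPA5 (chr9:125241361-125241439, minus strand): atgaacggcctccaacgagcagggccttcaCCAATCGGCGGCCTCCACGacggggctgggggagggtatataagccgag
HSP90B1 (chr12:103930186-103930369, plus strand): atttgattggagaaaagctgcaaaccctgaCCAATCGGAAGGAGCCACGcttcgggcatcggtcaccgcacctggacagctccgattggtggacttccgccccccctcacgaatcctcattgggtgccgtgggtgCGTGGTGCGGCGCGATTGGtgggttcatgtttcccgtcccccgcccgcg
CALR (chr19:12938359-12938432, plus strand): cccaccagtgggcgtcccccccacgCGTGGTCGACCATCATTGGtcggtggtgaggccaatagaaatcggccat
PDIA6 (chr2:10812823-10812901, minus strand): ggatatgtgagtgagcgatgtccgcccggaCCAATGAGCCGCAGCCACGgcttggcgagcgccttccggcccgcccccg
SDF2L1 (chr22:21642084-21642154, plus strand): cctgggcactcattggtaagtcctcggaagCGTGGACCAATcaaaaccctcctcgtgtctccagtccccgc
HERPUD1 (chr16:56931936-56932065, plus strand): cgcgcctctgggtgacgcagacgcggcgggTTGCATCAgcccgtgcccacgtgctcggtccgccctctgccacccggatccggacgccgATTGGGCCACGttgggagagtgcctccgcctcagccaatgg

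After scaling to the median gene, the HuR siRNA library held the highest level of 15 of the 33 members above 0 throughout (45.5%), against 16.1% of 10899 genes. The 15 included 6 of 13 ATF4 targets, 3 of 8 genes of tRNA charging and export and 4 of 8 ER genes. No member was highest in the control siRNA library, which held the highest level of 22.0% of all genes, and 11 members were lowest there against 25.0% of genes. The PDL 15 and PDL 55 libraries were highest for 7 members each and the AUF1 siRNA library for 4, all of them ATF4 targets. With the libraries scaled to a list of 11 housekeeping genes instead, the HuR siRNA library was highest for 6 of 33 members (18.2%), against 6.68% of all genes.

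**Figure D1:**
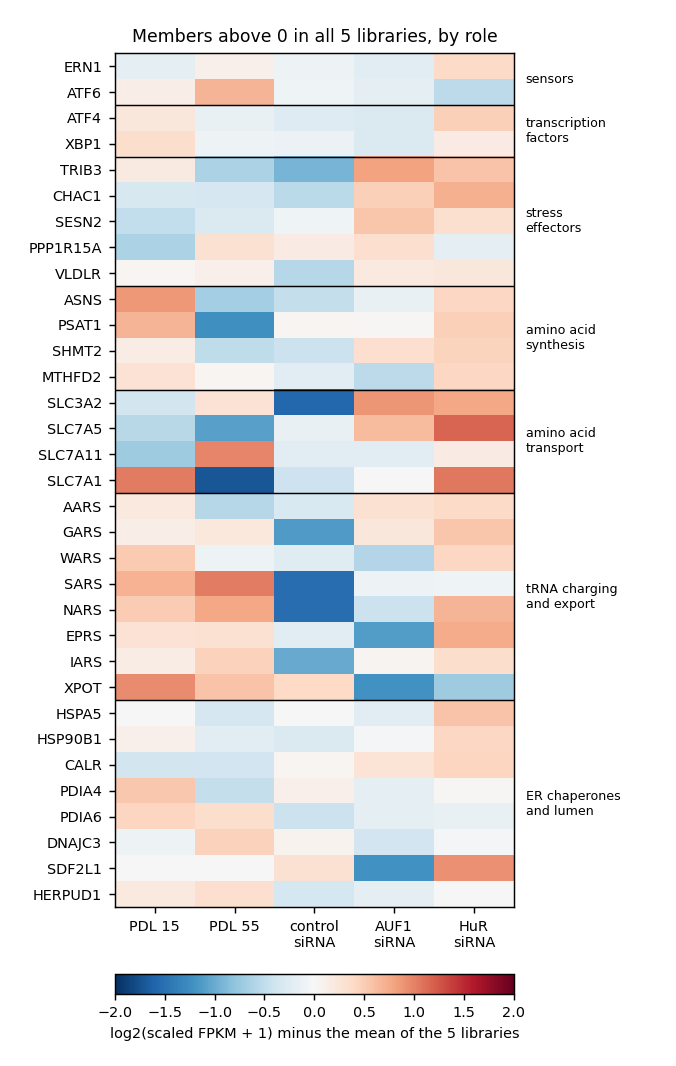
Scaled levels of the 33 members above 0 in all 5 libraries, as log2(scaled FPKM + 1) minus each gene's mean over the 5 libraries, with columns for libraries and rows grouped by role. The HuR siRNA column is above the gene's mean for most members, and the control siRNA column is darkest blue for SLC3A2, SARS and NARS.

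**Figure D2:**
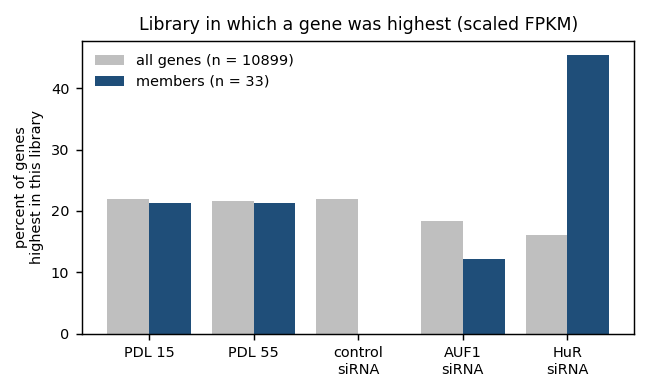
Percent of genes highest in each library after scaling, for all 10899 genes (grey) and the 33 members (blue). The HuR siRNA library held 45.5% of members against 16.1% of genes, and the control siRNA library held no member.

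Against the control siRNA library, 10 of 34 members were at least 2-fold higher in the HuR siRNA library and 1 was lower, where 8.18% of all genes were higher and 9.81% lower. The members' median was 0.62 and 29 of 34 were above the median gene. Against PDL 15 the median was 0.21, 25 of 36 were above the median gene, 4 were 2-fold higher and 1 lower, with 7.41% and 6.37% of all genes. The larger difference against the control library went with low levels in that library. Control siRNA against PDL 15 had 7 of 34 members lower and 0 higher, with a median of -0.46, where 9.05% of genes were lower and 11.9% higher. The split depended on the scaling. With the housekeeping list, 3 members were higher and 3 lower in HuR siRNA against control, and 3 higher and 2 lower in control against PDL 15. On that scale 18 of 34 members were below the reference in HuR siRNA against control. As deposited, without scaling, 15 were higher and 0 lower in HuR siRNA against control. For these other scalings, here and below, the share of all genes 2-fold apart is not given. Such counts therefore cannot be set against all genes.

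In the AUF1 siRNA library, 6 of 33 members were higher and 2 lower than in the control siRNA library, where 7.55% and 9.48% of all genes were. The median was 0.22. Against PDL 15, 3 of 35 were higher and 5 lower, where 8.39% and 6.98% of genes were, and the median was -0.26. With the housekeeping list, 4 were higher and 3 lower against control.

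**Figure D3:**
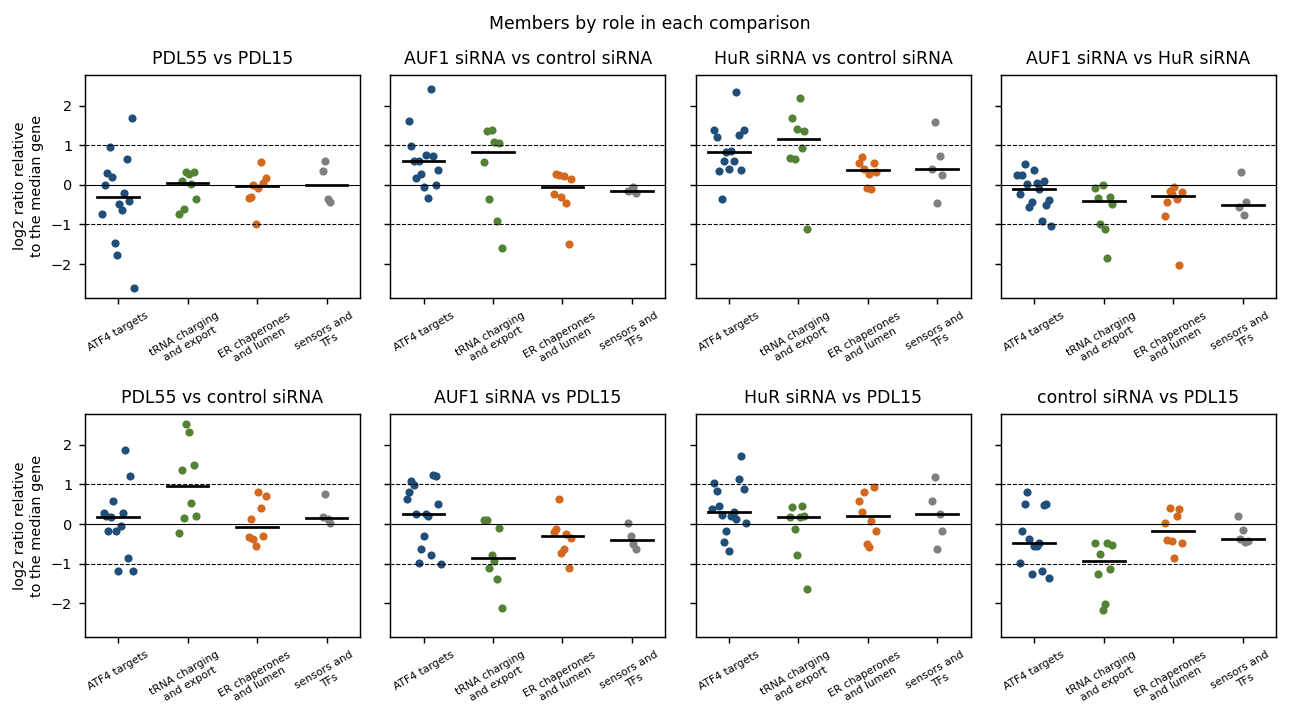
Log2 ratio relative to the median gene of each member (points) by role in 8 comparisons. Black bars mark the median of a role, and dashed lines mark 2-fold. Genes of tRNA charging and export had a median of 1.14 in HuR siRNA against control, 0.18 against PDL 15, and -0.94 in control against PDL 15.

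Among the sensors, ERN1 was at 2.74, 2.81, 2.22, 2.26 and 4.24 FPKM in the PDL 15, PDL 55, control, AUF1 siRNA and HuR siRNA libraries, the order used for every series of 5 values from here on. It was highest in the HuR siRNA library, with ratios of 0.39 against control and 0.58 against PDL 15. ATF6 was at 7.28, 8.93, 4.61, 4.78 and 4.02 FPKM, lowest in the HuR siRNA library, where it was 5.59 FPKM with assembled transcripts. EIF2AK3 was at 3.15, 0.00, 1.40, 0.00 and 7.84 FPKM. Its ratios in the HuR siRNA library were 1.57 against control and 1.19 against PDL 15. They rested on a fragment of 582 nucleotides at 6.17 FPKM that was listed at 0 elsewhere. From 1 transcript per gene the ratio against control was -0.15.

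ATF4, the transcription factor of the amino acid response, was at 25.3, 15.4, 13.5, 14.9 and 28.4 FPKM. All of this came from 1 transcript of 1420 nucleotides, within chr22:39915700-39918691 (hg19, as are the gene coordinates that follow). PDL 15 and the HuR siRNA library were high, and the other 3 libraries lay close together. The HuR siRNA ratio was 0.71 against control and 0.25 against PDL 15, and the AUF1 siRNA ratio was -0.05 and -0.50. XBP1 was at 13.2, 7.42, 6.96, 6.89 and 10.7 FPKM, so it was also highest at PDL 15 and in the HuR siRNA library. Neither factor was 2-fold apart in any of the 8 comparisons.

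The stress effectors are ATF4 targets of varied function. CHAC1, which degrades glutathione (chr15:41245347-41248717), was at 12.4, 9.73, 7.90, 19.0 and 24.6 FPKM. Its interval in the HuR siRNA library, [22.4, 26.9], lay above that of every other library, and the AUF1 siRNA interval, [17.0, 21.0], lay above those of the 3 remaining libraries. The HuR siRNA ratio was 1.22 against control and 1.03 against PDL 15. The AUF1 siRNA ratio was 0.98 and 0.81, just under 2-fold. All of the CHAC1 level came from transcripts of 1425 and 853 nucleotides, to which the authors' program gave the status LOWDATA. The one of 853 nucleotides was listed at 0 in the control library and was at 7.99 FPKM in the HuR siRNA library. The one of 1425 nucleotides alone was at 8.27, 6.32, 7.90, 12.6 and 16.7 FPKM.

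TRIB3, a pseudokinase that restrains ATF4 and CHOP (chr20:361261-378203), was at 6.16, 2.45, 1.73, 8.54 and 7.77 FPKM. Both the AUF1 and the HuR siRNA values were above the other 3, but the HuR siRNA interval, [6.82, 8.73], overlapped that of PDL 15, [5.31, 7.01]. The ratio against control was 1.62 for AUF1 siRNA and 1.38 for HuR siRNA, and against PDL 15 it was 0.64 and 0.39. SESN2, an inhibitor of the growth kinase mTORC1, was at 2.47, 2.38, 2.69, 5.32 and 4.81 FPKM, with the AUF1 and HuR siRNA libraries again above the rest. Its AUF1 siRNA ratio was 1.09 against PDL 15 and 0.59 against control.

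PPP1R15A, the phosphatase subunit that restores eIF2 (also called GADD34), did not share that order. It was at 7.08, 11.6, 9.70, 12.6 and 9.40 FPKM, lowest at PDL 15, and 17.3 FPKM in the HuR siRNA library with assembled transcripts. VLDLR, a lipoprotein receptor, was at 1.88, 1.62, 0.68, 1.90 and 2.13 FPKM, low in the control library alone.

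**Figure D4:**
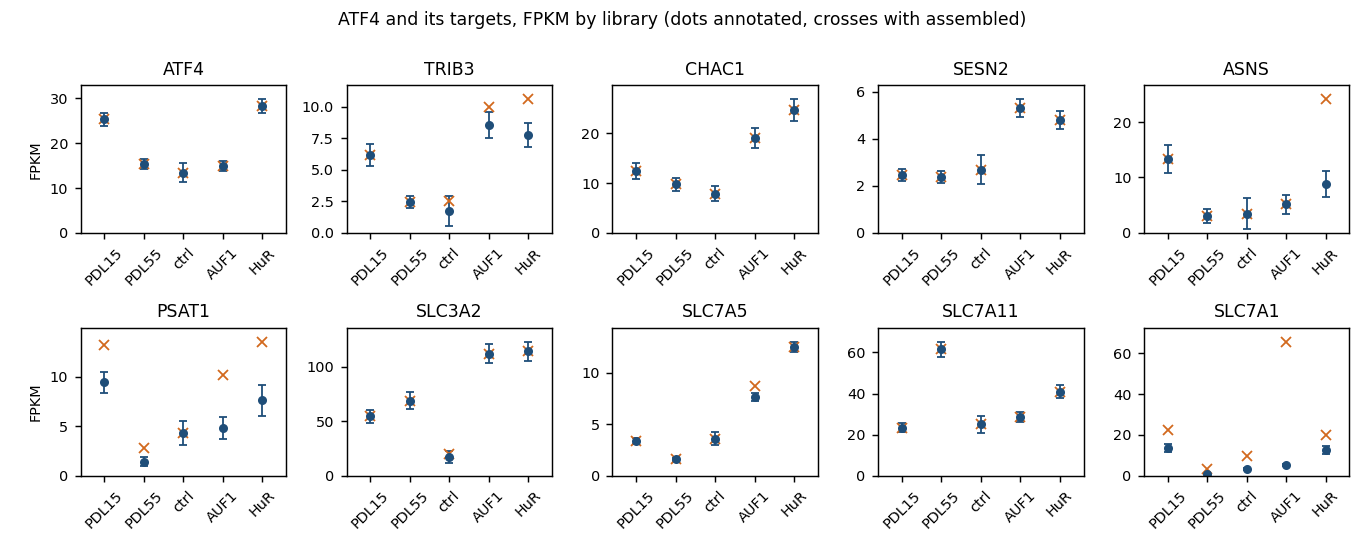
FPKM of ATF4 and 9 of its targets in the 5 libraries. Dots are annotated transcripts with the authors' summed 95% bounds, and crosses add transcripts assembled from the reads. CHAC1, SESN2, SLC3A2 and SLC7A5 were highest in the AUF1 and HuR siRNA libraries, SLC7A11 was highest at PDL 55, and SLC7A1 changes order when assembled transcripts are added.

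The enzymes of amino acid synthesis were lower at PDL 55 than at PDL 15, but not as a group lower than in the control siRNA library. Of 5 that could be compared, 5 were below the median gene at PDL 55, with a median of -0.63 against PDL 15, and 2 were at least 2-fold lower. Against control the median was -0.11 and 1 of 4 was 2-fold lower, where 14.1% of all genes were lower. Over all members, 1 of 34 was higher and 3 were lower at PDL 55, where 8.35% of all genes were higher and 8.17% lower. As deposited, without scaling, 1 was higher and 6 were lower. PSAT1, which makes phosphoserine for serine synthesis (chr9:80912043-80945009), was at 9.44, 1.42, 4.31, 4.80 and 7.60 FPKM. PDL 55 was lowest, and its interval, [0.984, 1.86], did not overlap any other. The PDL 55 ratio was -1.78 against PDL 15 and -1.19 against control. With assembled transcripts, which held much of the PSAT1 level in 4 libraries, the ratio against control was -0.56.

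ASNS, asparagine synthetase (chr7:97481430-97501854), was at 13.3, 3.11, 3.46, 5.17 and 8.84 FPKM. The PDL 15 library was highest, and the PDL 55 ratio against it was -1.47, but against control it was -0.17. In the HuR siRNA library the level was 24.2 FPKM with an assembled transcript added, so that annotated transcripts held 36.6% of it there and 100% elsewhere. SHMT2, mitochondrial serine hydroxymethyltransferase, was at 21.0, 10.3, 10.2, 20.5 and 24.2 FPKM. Its levels at PDL 55 and in the control library were the lowest, and its PDL 55 ratio was -0.63 against PDL 15. MTHFD2, the mitochondrial folate enzyme next to it, was at 11.6, 7.63, 5.83, 5.21 and 11.8 FPKM. The AUF1 siRNA library was lowest on annotated transcripts, but its interval, [4.32, 6.10], overlapped that of control, [3.53, 8.12]. With assembled transcripts the AUF1 siRNA level was 7.02 FPKM, above control. PHGDH, the first enzyme of serine synthesis, was at 12.0, 0.00, 0.00, 7.97 and 6.60 FPKM. PSPH, the last one, was at 3.17, 1.36, 0.00, 3.23 and 3.46 FPKM.

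The 4 amino acid transporters did not share 1 order of libraries. SLC7A5 (chr16:87863622-87903125) is the light chain of LAT1, which imports leucine and other large neutral amino acids. It was at 3.37, 1.60, 3.57, 7.62 and 12.5 FPKM, all from 1 transcript of 4575 nucleotides. Both intervals, [7.20, 8.04] for AUF1 and [12.0, 13.0] for HuR, lay above every other. The HuR siRNA ratio was 1.25 against control and 1.72 against PDL 15. The AUF1 siRNA ratio was 0.73 and 1.21.

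SLC3A2, the heavy chain that carries SLC7A5 and SLC7A11 to the membrane (chr11:62623518-62656352), was at 54.5, 69.1, 17.5, 112 and 114 FPKM. The AUF1 and HuR siRNA libraries were high and the control library was low. The AUF1 siRNA ratio was 2.42 against control and 1.25 against PDL 15, and the HuR siRNA ratio was 2.33 and 1.15. The values came from fragments of 534 to 583 nucleotides, and the other annotated transcripts were listed at 0.

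SLC7A11, the cystine importer xCT (chr4:139085251-139163503), was at 23.3, 61.6, 25.0, 28.4 and 40.9 FPKM. PDL 55 was high, at [58.0, 65.2], and the HuR siRNA library was next. The PDL 55 ratio was 1.69 against PDL 15 and 1.21 against control, and SLC7A11 was the 1 member at least 2-fold higher at PDL 55 against PDL 15. Both annotated transcripts followed that order. The one of 9645 nucleotides was at 5.05 FPKM at PDL 15 and 16.3 at PDL 55, and the one of 797 nucleotides was at 18.3 and 45.3.

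SLC7A1, the importer of arginine and lysine (chr13:30083547-30169721), was at 13.5, 0.91, 3.23, 5.19 and 12.8 FPKM. PDL 55 was lowest, with a ratio of -2.59 against PDL 15 and -1.20 against control. At PDL 15 and in the HuR siRNA library, a fragment of 547 nucleotides held 11.0 and 10.1 FPKM and was listed at 0 elsewhere. The transcript of 7243 nucleotides alone was at 2.48, 0.91, 3.23, 5.19 and 2.71 FPKM. With assembled transcripts the gene was at 22.5, 3.10, 9.59, 65.7 and 20.2 FPKM. PDL 55 was lowest in each of these sums, whereas the place of the AUF1 siRNA library depended on the sum. The HuR siRNA ratio against control was 1.39, and 0.65 with assembled transcripts.

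Genes that charge tRNA with amino acids were low in the control siRNA library. In control against PDL 15, 8 of 8 were below the median gene, with a median of -0.94, and 4 were at least 2-fold lower. Of all genes, 9.05% were lower there. The median was 1.14 in HuR siRNA against control and 0.82 in AUF1 siRNA against control, with 4 of 8 higher in each. Of all genes, 8.18% and 7.55% were higher. With the housekeeping list these medians were 0.49 and 0.50. In control against PDL 15 the median on that scale was -0.44, with 6 of 8 below the reference. Without LOWDATA transcripts the AUF1 siRNA median against control turned to -0.12, with 5 of 8 below the median gene. The HuR siRNA median against control was then 0.81. In control against PDL 15 the median was then -0.61, with 6 of 8 below the median gene, and GARS turned to 0.35. With all annotated transcripts, the median against PDL 15 was 0.18 in the HuR siRNA library and -0.86 in the AUF1 siRNA library. There, 0 of 8 were higher in either, 1 of 8 was lower in HuR siRNA and 3 of 8 in AUF1 siRNA. Of all genes, 6.37% and 6.98% were lower. PDL 55 against PDL 15 had a median of 0.06 and none 2-fold apart.

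SARS, seryl-tRNA synthetase, was at 40.0, 40.1, 5.89, 19.4 and 21.4 FPKM. The 2 untreated libraries were equal within their intervals, [36.8, 43.1] and [37.1, 43.2], and above the 3 siRNA libraries. The HuR siRNA ratio was 1.40 against control and -0.77 against PDL 15. A fragment of 694 nucleotides held 13.6 FPKM at PDL 15 and was listed at 0 in the control and HuR siRNA libraries. The SARS transcript of 1852 nucleotides alone was at 26.3, 27.6, 5.89, 13.8 and 21.4 FPKM. NARS, asparaginyl-tRNA synthetase, was at 74.8, 71.8, 13.1, 32.7 and 78.8 FPKM. The control and AUF1 siRNA libraries were low. The AUF1 siRNA ratio was 1.07 against control, or 0.70 with assembled transcripts, and -0.94 against PDL 15. Without LOWDATA transcripts the NARS ratio of AUF1 siRNA against control was -0.0315.

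GARS, glycyl-tRNA synthetase, was at 190, 160, 58.9, 173 and 239 FPKM. IARS, isoleucyl-tRNA synthetase, was at 180, 180, 60.8, 145 and 194 FPKM. In both, the control library was low and the interval of the HuR siRNA library lay above those of the control and AUF1 siRNA libraries. In GARS, the ratio of HuR siRNA was 1.69 against control and 0.42 against PDL 15, and in IARS it was 1.35 and 0.20. In the HuR siRNA library, 34.8 FPKM of IARS came from a fragment of 780 nucleotides, placed by position and listed at 0 elsewhere. A transcript of 4186 nucleotides went the other way, at 13.7 FPKM at PDL 15 and 0 in the HuR siRNA library. The IARS ratios therefore depended on which transcripts were summed. Most GARS signal came from fragments with the status LOWDATA. Without such transcripts the GARS ratio of AUF1 siRNA against control was -0.21, and that of control against PDL 15 was 0.35, so GARS was then not low in control.

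AARS, GARS and IARS are the synthetases whose promoter windows held the ATF4-type motif shown above. Their HuR siRNA ratios ran from 0.67 to 1.69 against control and from 0.18 to 0.42 against PDL 15. Those of SARS, NARS, EPRS and WARS, with no match in the window, ran from 0.64 to 2.19 and from -0.77 to 0.45. The ranges of the synthetases with and without the motif overlapped.

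EPRS, which charges both glutamate and proline, was at 29.7, 23.9, 15.6, 8.99 and 38.3 FPKM, from 1 transcript of 5014 nucleotides. HuR siRNA was highest. On annotated transcripts AUF1 siRNA was lowest, with a ratio of -0.92 against control and -1.39 against PDL 15. Annotated transcripts held 52.8% of the EPRS level in that library and 100% in the others. With assembled transcripts it was at 17.0 FPKM, above control, and the ratio against PDL 15 was -0.56, under 2-fold. WARS, tryptophanyl-tRNA synthetase, was at 37.7, 19.2, 16.4, 14.4 and 32.5 FPKM, with PDL 15 and HuR siRNA high. AARS, alanyl-tRNA synthetase, was at 20.8, 9.35, 10.7, 19.0 and 22.1 FPKM, with PDL 55 and control low.

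XPOT, the nuclear exporter of tRNA, was at 28.2, 17.3, 14.3, 4.75 and 7.79 FPKM, in an order unlike that of the synthetases. The AUF1 and HuR siRNA libraries were lowest. The AUF1 siRNA ratio was -1.60 against control and -2.12 against PDL 15, and the HuR siRNA ratio was -1.11 and -1.64. Shorter transcripts made the difference. The transcript of 6414 nucleotides was at 8.45, 5.28, 3.48, 4.75 and 7.79 FPKM, and from 1 transcript per gene the ratios against control were 0.16 for AUF1 siRNA and 0.66 for HuR siRNA.

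**Figure D5:**
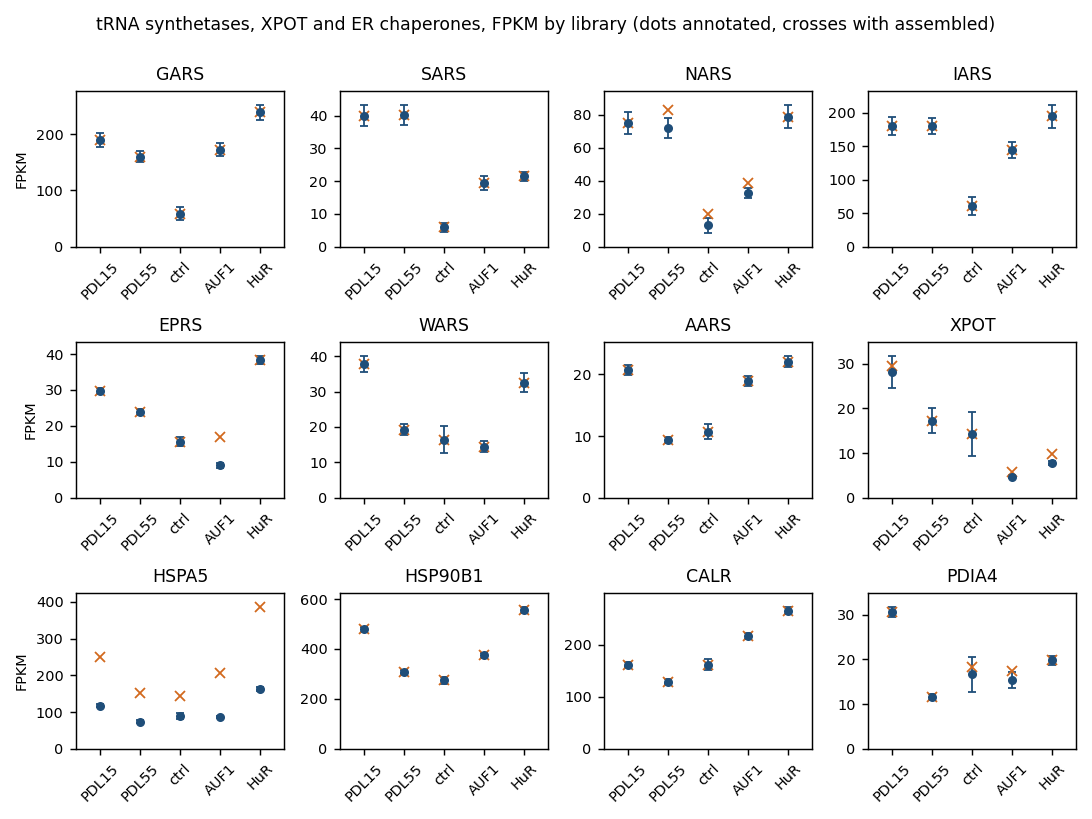
FPKM of 7 tRNA synthetases, the tRNA exporter XPOT and 4 ER chaperones in the 5 libraries. Dots are annotated transcripts with the authors' summed 95% bounds, and crosses add assembled transcripts. SARS, NARS, GARS and IARS were lowest in the control library, and HSPA5, HSP90B1 and CALR were highest in the HuR siRNA library.

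Of the ER chaperones and lumen genes, 8 could be compared. In HuR siRNA against control, 6 of 8 were above the median gene, the median was 0.37 and none was 2-fold apart. With the housekeeping list the direction turned, with a median of -0.28 and 7 of 8 below the reference. Against PDL 15 the median was 0.19. HSPA5 (BiP, the main Hsp70 of the ER, chr9:127997132-128003622) was at 117, 74.0, 89.3, 86.5 and 164 FPKM. The HuR siRNA interval, [159, 169], lay above all others. The HuR siRNA ratio was 0.56 against control and 0.58 against PDL 15. The annotated level came from 1 transcript of 1141 nucleotides, of status LOWDATA, that was placed in HSPA5 by position. The transcript of 3908 nucleotides was listed at 0 in every library. Assembled transcripts brought the gene to 249, 151, 142, 205 and 385 FPKM, also highest in the HuR siRNA library.

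HSP90B1 (GRP94, the Hsp90 of the ER) was at 479, 308, 274, 375 and 555 FPKM, the highest level per length of any member in each library. CALR, calreticulin, was at 162, 129, 161, 216 and 265 FPKM. Both were highest in the HuR siRNA library. Their ratios there were 0.71 and 0.41 against control, and 0.31 and 0.80 against PDL 15. SDF2L1, a partner of HSPA5, was at 3.78, 2.96, 3.66, 0.90 and 7.49 FPKM, lowest in the AUF1 siRNA library. Its AUF1 siRNA ratio was -1.48 against control and -1.10 against PDL 15.

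The other ER genes did not share the high level in the HuR siRNA library. PDIA4, a disulfide isomerase, was at 30.5, 11.6, 16.6, 15.3 and 19.8 FPKM, and PDIA6, another, was at 52.0, 39.2, 21.1, 28.2 and 32.0 FPKM. Both were highest at PDL 15. The ER stress response element was in the windows of HSPA5, HSP90B1, CALR and PDIA6 alike, so genes with the element did not share 1 order of libraries. HERPUD1, a membrane protein of ER-associated degradation, was at 10.4, 9.29, 5.12, 6.70 and 8.51 FPKM. DNAJC3, a co-chaperone of HSPA5, was at 19.9, 23.8, 17.0, 13.9 and 19.7 FPKM.

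The AUF1 and HuR siRNA libraries differed from each other in the same direction for most members. In AUF1 against HuR siRNA, 27 of 35 members were below the median gene, with a median of -0.34, including 8 of 8 genes of tRNA charging and export and 8 of 8 ER genes. At least 2-fold lower were 4 members, SDF2L1 at -2.03, EPRS at -1.85, NARS at -1.12 and SLC7A1 at -1.03, and 0 were higher, where 4.43% of all genes were lower and 4.76% higher. With assembled transcripts SDF2L1 stayed at -2.03, EPRS was at -0.99 and NARS at -0.87, both under 2-fold, and SLC7A1 turned to 1.78. With the housekeeping list, 18 of 35 members were below, including 5 of 8 and 4 of 8 in these groups, and 2 were 2-fold lower. ATF4 targets did not share the pattern, with 8 of 15 below the median gene.

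Members that were 2-fold apart in the same direction against both references were few. In the HuR siRNA library these were EIF2AK3, CHAC1, SLC3A2 and SLC7A5 on the higher side and XPOT on the lower, or 11.8% and 2.94% of 34, against 1.96% and 1.93% of all genes. With assembled transcripts CHAC1, SLC3A2 and SLC7A5 stayed 2-fold apart against both. On that sum EIF2AK3 was at 0.53 against PDL 15 and XPOT at -0.85 against control. The CHAC1 level came only from transcripts of status LOWDATA, of which that of 853 nucleotides was listed at 0 in the control library. In the AUF1 siRNA library the members apart against both references were SLC3A2 higher and XPOT and SDF2L1 lower. These were 3.03% and 6.06% of 33, against 1.89% and 1.97% of all genes. At PDL 55 they were SLC7A11 higher and PSAT1 and SLC7A1 lower, or 3.03% and 6.06% of 33, against 3.91% and 4.78%, so the PDL 55 share was not far from that of all genes. PSAT1 lost the call against control with assembled transcripts. SLC7A1 kept both calls on that sum, at -2.18 against PDL 15 and -1.44 against control. Its transcript of 7243 nucleotides alone was at 2.48 FPKM at PDL 15 and 0.91 at PDL 55. The rest of its annotated level at PDL 15 was a fragment of 547 nucleotides. From 1 transcript per gene, XPOT was at 0.16 against control in the AUF1 siRNA library and at 0.66 in the HuR siRNA library.

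Genes of the same pathways outside the 42 were read from 9 further lists with 114 genes in all. Of 16 other ATF4 and CHOP targets, 12 could be compared with control. In HuR siRNA and in AUF1 siRNA 0 of 12 were 2-fold apart, with medians of 0.37 and 0.08. Against PDL 15 their medians were -0.27 for HuR siRNA and -0.23 for AUF1 siRNA. There, 1 of 13 was higher and 1 lower for HuR siRNA, and 1 of 13 higher and 2 lower for AUF1 siRNA. Of all genes, 8.18% were higher and 9.81% lower in HuR siRNA against control, and 7.41% and 6.37% against PDL 15. Of 13 other cytosolic synthetases, 3 of 11 were higher and 1 lower in HuR siRNA against control, with a median of 0.33. Against PDL 15, 0 of 11 were 2-fold apart and the median was 0.18. MARS, methionyl-tRNA synthetase, was at 16.5, 8.06, 5.75, 11.1 and 28.8 FPKM, with a HuR siRNA ratio of 1.83 against control and 0.86 against PDL 15. DDIT3 overlaps the end of MARS, and reads in the overlap cannot be told apart because strand was not stated. VARS, valyl-tRNA synthetase, was at 11.7, 2.14, 32.1, 17.0 and 13.9 FPKM, high in the control library where most members were low. Mitochondrial synthetases had a median of -0.09 in HuR siRNA against control, with 3 of 11 higher and 0 lower. Against PDL 15 their median was -0.14, with 0 of 11 higher and 1 lower.

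Of 19 other ER folding genes, 2 of 15 were higher and 2 lower in HuR siRNA against control, with a median of -0.07. Against PDL 15, 2 of 14 were higher and 0 lower, with a median of 0.16. In HuR siRNA against control, ER degradation and translocation genes had 1 of 10 higher and a median of 0.11, and cytosolic heat shock genes had 2 of 10 higher and a median of 0.26. Factors activated by regulated proteolysis and mitochondrial chaperones had 0 of 4 and 0 of 5 higher, with medians of 0.54 and 0.33. No gene of these 4 lists was 2-fold lower against control. In HuR siRNA against PDL 15 the medians of these 4 lists, in the same order, were 0.13, 0.04, 0.80 and 0.44. There, 1 of 9, 1 of 10, 1 of 4 and 0 of 6 were higher, and 0 were lower. PDIA5, a disulfide isomerase, was at 35.5, 20.6, 20.1, 26.0 and 69.8 FPKM, with a HuR siRNA ratio of 1.44 against control and 1.05 against PDL 15. DNAJC10, an ER reductase, was at 24.5, 4.50, 14.8, 10.2 and 22.2 FPKM, with a PDL 55 ratio of -1.89 against PDL 15. With assembled transcripts that ratio was -0.47, under 2-fold. Of 11 genes of eIF2 control, 1 of 8 was higher in HuR siRNA against control, with a median of 0.33. That gene was EIF2B1, a subunit of the exchange factor for eIF2, at 23.4, 33.2, 9.80, 19.7 and 34.5 FPKM. In HuR siRNA against PDL 15 EIF2B1 was at 0.64, under 2-fold. The median of eIF2 control was 0.16 there, with 1 other gene of 8 higher. CREB3L1, a membrane-bound factor that is cut like ATF6, was at 39.5, 52.6, 128, 158 and 245 FPKM, higher in all 3 siRNA libraries than in both untreated ones. The cytosolic chaperone HSP90AB1 was at 579, 481, 93.9, 579 and 457 FPKM, low in the control library alone. Its HuR siRNA ratio was 1.96 against control and -0.25 against PDL 15.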

How the data were processed

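TopHat2 2.0.6, Cufflinks 2.0.2, Cuffdiff and the build hg19 are named in the submitters' processing notes. Per the labels' protocols, RNA was amplified by a method that covers messages with and without a polyA tail. Strand is not given in the sources used here. Per the file headers, the authors deposited for each transcript an FPKM value, its 95% bounds, a coverage signal, used here only to compare the libraries, and a status. Read counts are unknown, so no counting interval is given.

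FPKM was summed over the annotated transcripts of a symbol. Of 160485 annotated transcripts 94.9% were assigned, by GENCODE 29 (names and types only), by a gene identifier in a table, or by position (at least 50% of the span in 1 gene and under 10% in any other). Genes with a FAIL transcript, small RNA genes and genes with a mean under 1 FPKM were left out, which left 12411 genes. Genes listed at 0 in 1 of the 2 libraries were left out of that comparison. The pseudocount was 1 FPKM, which understates changes of low genes. The median log2 ratio of all genes, subtracted from each value, was -0.33 for PDL 55 against PDL 15, 0.19 for AUF1 siRNA against control, 0.31 for HuR siRNA against control, -0.13 for AUF1 against HuR siRNA, -0.41 for control against PDL 15, -0.23 for AUF1 siRNA against PDL 15, -0.10 for HuR siRNA against PDL 15, and 0.05 for PDL 55 against control. Python 3.11.15, pandas 2.3.3 and numpy 2.4.6 were used. The ratio script was tested on simulated data.

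The members and lists were chosen with earlier results of these data known. All members are described. Of the other lists, a gene was named only as the highest or lowest of its list in a comparison, with a mean of at least 5 FPKM, 2-fold apart and with intervals apart. Alternatives were other pseudocounts, filters, scalings, statuses, transcript sums and references. Counting genes listed at 0, using transcripts without placement by position, and the alternatives for the number of members highest in the HuR siRNA library were chosen after seeing the data. The placement by position itself was adopted after HSPA5 and HSP90B1 had been found at 0 without it.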

Additional observations from a re-analysis of the deposited data

How the results depend on the processing

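Of 151 recomputed counts of members, 122 stayed within 1.5 times the value given above, and of 2896 recomputed ratios of single genes, 30 changed sign after having been at least 2-fold apart. The cause was not tested. Counts of members at least 2-fold apart changed as follows. With PDL 15 as the reference, AUF1 siRNA had 3 higher and 5 lower and HuR siRNA 4 higher. With control siRNA as the reference, PDL 55 had 6 of 33 higher (18.2%), where 13.4% of all genes were higher. With the housekeeping list, HuR siRNA against control had 3 higher and 3 lower, control against PDL 15 had 3 higher and 2 lower, AUF1 against HuR siRNA had 2 lower, and 6 members were highest in the HuR siRNA library. As deposited, PDL 55 had 6 lower and HuR siRNA against control 0 lower. A pseudocount of 0.1 gave 2 higher at PDL 55. One of 5 gave 1 lower at PDL 55, 6 higher and 0 lower for HuR siRNA and 1 lower for AUF1 siRNA against control. With assembled transcripts, AUF1 against HuR siRNA had 1 higher and HuR siRNA against control 0 lower. From 1 transcript per gene, AUF1 against HuR siRNA had 2 lower, and against control AUF1 siRNA had 1 and HuR siRNA 0 lower. With ratios of fragment mass (FPKM times length), AUF1 siRNA against control had 3 higher and 1 lower and HuR siRNA 0 lower. HuR siRNA against control also had 0 lower without LOWDATA transcripts and without a filter on the mean. A mean of at least 5 FPKM left 2 lower in AUF1 against HuR siRNA. Counting genes listed at 0, chosen after seeing the data, gave 5 lower at PDL 55.

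Single ratios that changed sign were these. From 1 transcript per gene, EIF2AK3 was -0.15, VARS 0.33 and XPOT 0.66 in HuR siRNA against control, and TARS was 0.42 and XPOT 0.16 in AUF1 siRNA against control. Without placement by position MANF was 0.46 in AUF1 siRNA against control. Against PDL 15, HSP90AB1 was -0.25, SARS -0.77 and VARS 0.32 in HuR siRNA, and IARS was -0.089, NARS -0.94 and SARS -0.78 in AUF1 siRNA. With assembled transcripts, BAG3 was 0.021, MARS 0.12 and SLC7A1 1.78 in AUF1 against HuR siRNA, and P4HB was 0.049 in HuR siRNA against control. By fragment mass, HARS was -0.25 in AUF1 siRNA against control, SEC24D -1.01 and SLC7A1 0.36 in control against PDL 15, SLC7A1 0.59 in AUF1 against HuR siRNA, and SLC7A1 -0.20 and XPOT 0.38 in HuR siRNA against control. Without LOWDATA transcripts, EIF2AK3 was -0.15, SLC7A1 -0.49 and VARS 0.066 in HuR siRNA against control, GARS -0.21 and NARS -0.0315 in AUF1 siRNA against control, GARS 0.35 and SLC7A1 0.70 in control against PDL 15, and SLC7A1 0.87 in AUF1 against HuR siRNA. No paired analysis was possible because each group had 1 library. The number of reads is unknown, so how far depth limits the low members could not be stated.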
